A study of Mus musculus with 4 samples.

Results

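A rule based on 6 marker genes picked out 1449 reporter-negative cells among 7279 keratin-positive epithelial cells of LATS1/2 KO mammary glands. The LATS1/2 KO mice bore floxed *Lats1* and *Lats2* with a luminal Cre. Any 3 markers sufficed, so a chosen cell need not hold *Wfdc3* or *Kcnj15*. *Wfdc3* was detected in 71.7% and 76.3% of the chosen cells in KO replicates 1 and 2, and *Kcnj15* in 43.8% and 58.4%. The chosen cells are treated below as a luminal state, although the number of markers per cell had no gap at the limit. These cells, called Wfdc3/Kcnj15 cells here, were chosen by counts of unique molecular identifiers (UMIs) in single-cell RNA-sequencing libraries. A cell entered if it came from a LATS1/2 KO library, reached 10 CP10K (UMIs scaled to a common total per cell) for *Krt8* plus *Krt18*, and held no UMI of the leukocyte gene *Ptprc* and none of the *EYFP* reporter. It also had to hold at least 3 of the 6 markers *Wfdc3*, *Kcnj15*, *Foxq1*, *Fam20a*, *Cp* and *Pdk4*, fewer than 2 of 8 cycling genes (*Ube2c*, *Birc5*, *Cdk1*, *Cdca8*, *Ccnb1*, *Cdc20*, *Top2a* and *Mki67*), and no UMI of *Sox11* or *Crct1*, which mark other LATS1/2 KO epithelial cells. Every gene in that rule is therefore described below by its level, with no test result given. Rule genes that passed the filter on low counts stayed in the fits and in the counts of all genes.

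The series compared adult nulliparous mice, with 1 library per mouse, 2 mice labelled WT and 2 labelled LATS1/2 KO. All 4 carried floxed *Lats1* and *Lats2* on both alleles and a Cre-dependent *EYFP* at *R26*, so the WT animals were not free of engineered alleles, and all were given 2 mg tamoxifen on each of 5 days, with glands taken 7 days after the last dose. *Krt8-CreERT2*, a tamoxifen-activated Cre driven by the promoter of the luminal keratin gene *Krt8*, was present only in the LATS1/2 KO mice. The *EYFP* allele was heterozygous in both WT mice and in LATS1/2 KO replicate 1, and homozygous in LATS1/2 KO replicate 2.

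The luminal lining of the mammary duct holds hormone-sensing cells, which express estrogen and progesterone receptors, and hormone receptor-negative cells, which include progenitors of the milk-secreting alveoli and express *Elf5*, *Kit* and *Plet1*. LATS1 and LATS2 are the kinases at the end of the Hippo cascade: they phosphorylate the coactivators YAP and TAZ and keep them out of the nucleus, where YAP and TAZ would otherwise switch on genes such as *Ctgf*, *Cyr61* and *Ankrd1* together with TEAD factors. The EYFP reporter is meant to report Cre activity, but a 3' droplet library samples only part of the RNA of a cell, so a cell without an *EYFP* UMI is not shown to lack the transcript or to have kept its *Lats* genes.

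The kept cells numbered 18200 of 20324 barcodes, with 38792520 to 46810771 UMIs per library and a median of 5962.5 to 10141 UMIs per cell. Pairs of libraries shared 4 to 12 cell barcodes. Levels are in CPM, the UMIs of a gene scaled to a common total of UMIs over all cells of a group in a mouse, and are not corrected for gene length, which 3'-end counting does not need. *Lats1* was at 24.5 and 24.5 CPM in the Wfdc3/Kcnj15 cells of the KO replicates 1 and 2 and at 25.05 and 24.2 in the WT luminal reference, and *Lats2* at 30.6 and 32.95 against 14.3 and 16.3. These 3'-end counts were not shown to lie in the deleted exons, which are not given in the sources used here, so they do not check the deletion. RNA of other cell types was present in the KO cells: taking *Col1a1*, *Col1a2* and *Col3a1* as foreign to luminal cells, 11.96% and 14.7% of the UMIs of the Wfdc3/Kcnj15 cells were estimated to be free RNA, against 38.5% and 6.01% in the WT reference, whose whole libraries held these collagens at 77.4 and 48.8 CPM in all, against 2299 and 2722 in KO. These shares overstate the free RNA of at least some genes: the whole *Igfbp2* level of the Wfdc3/Kcnj15 cells, 79.01 and 98.99 CPM, allows no more than 5.52% and 6.67% if free RNA has the makeup of the whole library, and the same collagen measure gave 99.97% in KO replicate 1 cells with under 3 markers. Levels given below as estimated free RNA, and calls after its subtraction, may therefore be too high for some genes. The lower share would not account for the collagens themselves, and which share holds for a given gene was not tested. In WT replicate 1, 4436 of 4914 kept cells were keratin-positive. Taking 38.5% of that library's makeup from its reference can therefore remove RNA that the luminal cells made themselves. KO changes after the subtraction can then be too large. The summed fibroblast markers stood at 471 and 700 CPM in the Wfdc3/Kcnj15 cells, with all 8 genes detected, against 68.1 and 38.9 in the WT reference. The summed endothelial markers were at 273 and 190 against 25.5 and 16.2, and the macrophage and myeloid markers at 61.1 and 68.9 against 12.6 and 16.4. The 8 lymphocyte markers summed to 9.06 and 5.56 against 3.41 and 2.79, with *Ms4a1*, *Cd3d*, *Cd3g* and *Nkg7* at 0 in both KO sums. Perivascular markers were at 38.5 and 43.1 against 47.0 and 50.6. Adipocyte markers set the mice apart, at 5.01 in KO replicate 1 and 201 in replicate 2, against 0.275 and 0.430 in WT.

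The 6 markers are unlike each other in function. *Wfdc3* belongs to the WAP four-disulfide core family of small secreted proteins, *Kcnj15* encodes an inwardly rectifying potassium channel, *Foxq1* a forkhead transcription factor, *Fam20a* a pseudokinase that assists the secretory kinase FAM20C, *Cp* the copper-carrying ferroxidase ceruloplasmin, and *Pdk4* a mitochondrial kinase that switches off pyruvate dehydrogenase in fasting. In GRCm38 (GENCODE M21) they are protein-coding genes on 6 chromosomes: *Wfdc3* (ENSMUSG00000076434) at chr2:164731180-164745931 on the minus strand, *Kcnj15* (ENSMUSG00000062609) at chr16:95257558-95300260 on the plus strand, *Foxq1* (ENSMUSG00000038415) at chr13:31556134-31560976 (plus), *Fam20a* (ENSMUSG00000020614) at chr11:109669749-109722279 (minus), *Cp* (ENSMUSG00000003617) at chr3:19957054-20009145 (plus) and *Pdk4* (ENSMUSG00000019577) at chr6:5483351-5496309 (minus). RefSeq promoters (GRCm38.p6, 250 bases before to 50 after a start) matched 5 of the 6, with 6 windows. They were searched on both strands for GGAATG (TEAD), TGANTCA (AP-1), ACANNNTGT (glucocorticoid receptor) and TTCNNNGAA (STAT), which occur in 14.7%, 7.81%, 6.85% and 8.30% of 32851 promoters of the same length. Of the 6 windows, matches were present only in the 2 overlapping windows of *Cp*, which share a single GGAATG match, and 1 of them also holds TGANTCA. The promoters of *Wfdc3* and *Kcnj15*, which give the cells their name, and the *Cp* window with matches in capitals are shown 5′ to 3′ on the gene's own strand. The *Wfdc3* window lies inside the annotated gene span, downstream of the GENCODE gene start.
Wfdc3 promoter, chr2:164743218-164743517, minus strand: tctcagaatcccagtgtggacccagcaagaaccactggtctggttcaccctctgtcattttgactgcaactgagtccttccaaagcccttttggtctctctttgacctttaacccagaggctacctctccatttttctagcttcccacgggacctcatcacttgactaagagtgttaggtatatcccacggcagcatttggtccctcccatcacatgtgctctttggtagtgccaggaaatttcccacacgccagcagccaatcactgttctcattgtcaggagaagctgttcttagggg
Kcnj15 promoter, chr16:95257308-95257607, plus strand: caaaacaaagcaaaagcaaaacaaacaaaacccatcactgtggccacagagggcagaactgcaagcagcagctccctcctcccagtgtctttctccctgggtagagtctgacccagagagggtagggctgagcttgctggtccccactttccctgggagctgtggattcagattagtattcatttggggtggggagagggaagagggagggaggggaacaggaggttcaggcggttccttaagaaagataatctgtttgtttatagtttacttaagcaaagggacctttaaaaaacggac
Cp promoter, chr3:19956804-19957103, plus strand, GGAATG (read as CATTCC, its other strand) and TGANTCA in capitals: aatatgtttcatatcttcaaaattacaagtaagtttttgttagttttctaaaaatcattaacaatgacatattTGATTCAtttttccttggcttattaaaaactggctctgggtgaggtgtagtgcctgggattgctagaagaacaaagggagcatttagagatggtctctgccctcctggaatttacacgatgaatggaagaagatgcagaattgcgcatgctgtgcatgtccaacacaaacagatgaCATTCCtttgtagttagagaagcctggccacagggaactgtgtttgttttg

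Wfdc3/Kcnj15 cells made up 16.8% of keratin-positive cells in KO replicate 1 (650 of 3861, 95% exact binomial interval 15.7 to 18.1%) and 23.4% in KO replicate 2 (799 of 3418, 22.0 to 24.8%). The same conditions were met by 6.56% of WT replicate 1 (291 of 4436, 5.85 to 7.33%) and 5.09% of WT replicate 2 (164 of 3225, 4.35 to 5.90%). The KO shares lay above both WT shares at this limit. With 2 or more markers they did not separate, at 27.1% and 36.02% in KO against 27.5% and 27.1% in WT, where KO replicate 1 lay below WT replicate 1. The WT cells that met the rule were deep cells, with medians of 15708 and 16675 UMIs against 6964 and 7930 in the KO cells, and 44.0% and 46.3% of them held 2 or more UMIs of the hormone-sensing genes *Prlr* and *Cited1*, against 13.8% and 9.89% of the KO cells. When each cell was thinned to 2000 UMIs, the shares were 7.05% and 10.7% in KO (254 of 3603 and 345 of 3227 cells) and 0.211% and 0.188% in WT (9 of 4275 and 6 of 3195). An exact permutation test over 2 against 2 mice cannot give a two-sided p below 0.33, and intervals cover counting error only. The markers were chosen with earlier results of these data known, so a higher KO share in these libraries is not an independent result.

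**Figure D1:**
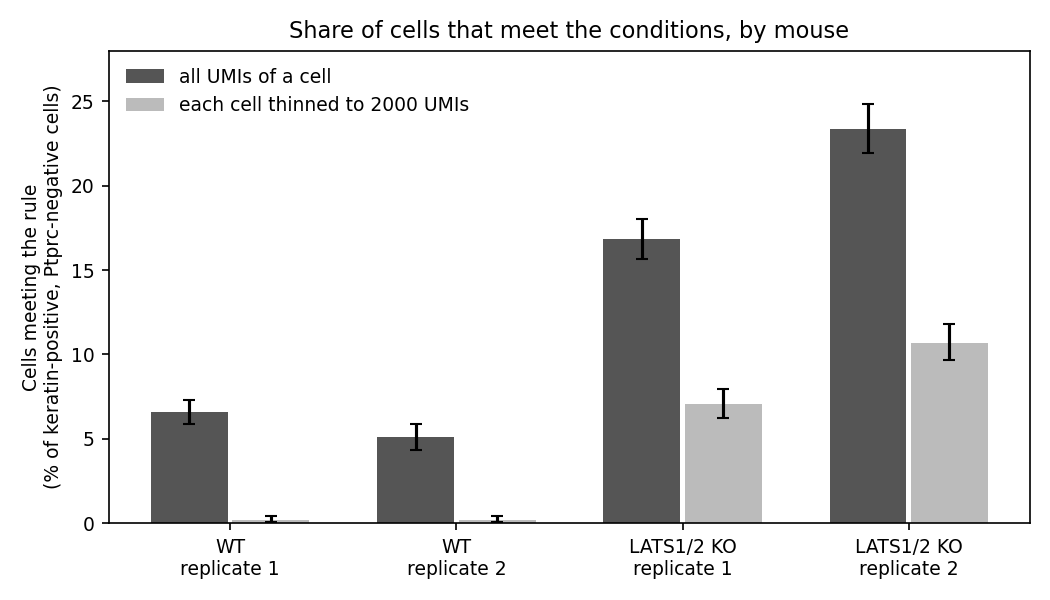
Share of keratin-positive, Ptprc-negative cells that met the conditions in each mouse, in percent, with all UMIs (dark bars) and with every cell thinned to 2000 UMIs (light bars); error bars are exact binomial 95% intervals. Both KO mice lie above both WT mice, at 16.8% and 23.4% against 6.56% and 5.09%, and after thinning the WT shares are near 0.2%.

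The number of markers per cell had no gap at the limit. Among EYFP-negative, noncycling, Sox11- and Crct1-negative KO cells, 398 and 432 cells just outside the limit held exactly 2 markers, 340 and 336 just inside held exactly 3, and 37 and 75 held all 6. In these cells the median depth was 5149 and 5293.5 UMIs with 2 markers, 5590.5 and 5917 with 3, and 11346 and 14572 with 6, so depth rose with the number of markers. *Cp* was detected in 98.8% and 98.6% of the Wfdc3/Kcnj15 cells, *Wfdc3* in 71.7% and 76.3%, *Pdk4* in 67.7% and 57.3%, *Foxq1* in 53.1% and 57.8%, *Kcnj15* in 43.8% and 58.4%, and *Fam20a* in 38.8% and 47.6%. Thinned to 2000 UMIs, *Wfdc3* was detected in 38.8% and 41.6% of them and in 1.599% and 2.12% of WT reference cells, whereas *Cp* was in 81.3% and 79.9% against 45.1% and 49.3%. *Cp* was thus a common luminal transcript that was higher in the state, and *Wfdc3* one that was rare in the WT reference.

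The state was chosen to lack *EYFP*, and *EYFP*-positive cells that met every other condition were few. Among noncycling cells with 3 or more markers, 54 of 704 (7.67%, 5.81 to 9.89%) held an *EYFP* UMI in KO replicate 1 and 95 of 894 (10.6%, 8.68 to 12.8%) in replicate 2. The shares were 7.58% and 14.2% in cells with under 3 markers, 33.0% and 47.8% in cycling cells and 52.1% and 60.1% in Sox11-positive cells. In KO cells that were not keratin-positive or held *Ptprc*, called non-keratin cells here, 3.13% and 3.13% held an *EYFP* UMI. Their medians were 5388 and 4470.5 UMIs, against 7032.5 and 8165 in the cells with 3 or more markers. These non-keratin cells can include basal or other epithelial cells with low keratin counts. They are therefore not a background in which the reporter must be silent. At 2000 UMIs per cell the share was 2.59% and 3.18% in cells with 3 or more markers, 4.45% and 8.601% in cells with under 3, 1.40% and 1.602% in the non-keratin cells, and 26.8% and 33.5% in Sox11-positive cells. In the WT mice, which lack the Cre, it was 0 of 292 and 0 of 164 cells with 3 or more markers, with exact upper bounds of 1.26% and 2.22%. *EYFP* UMIs were not absent without the Cre. At full depth they were in 10 of 4092 and 14 of 2955 WT cells with under 3 markers. WT replicate 1 also had them in 2 of 293 cells with 3 or more markers. At 2000 UMIs they were in 0.244% and 1.17% of WT non-keratin cells, with an interval of 0.242 to 3.39% in WT replicate 2. At equal depth the marker-positive KO cells lay above the KO non-keratin cells in both KO mice. The intervals overlapped within each mouse (1.54 to 4.07% against 0.607 to 2.74%, and 2.12 to 4.56% against 1.04 to 2.36%). The marker-positive cells lay below the Sox11-positive cells in both mice. They also lay below the cells with under 3 markers, but in KO replicate 1 these intervals overlapped (1.54 to 4.07% against 3.40 to 5.72%). In that mouse the shares at full depth were 7.67% and 7.58%.

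In level, the marker that set the state furthest from WT was *Kcnj15*, at 82.3 and 115 CPM in the KO replicates against 1.54 and 1.58 in the WT reference, a 63.3-fold difference of the means. The WT reference was made of 2376 and 1650 cells with the same keratin limit and no *Ptprc*, with *Elf5* or *Plet1* detected and fewer than 2 UMIs of *Prlr* plus *Cited1*. *Wfdc3* was at 284 and 315 against 8.202 and 10.3 (32.4-fold). *Fam20a* was at 68.4 and 88.1 against 8.04 and 4.94 (12.1-fold), and *Foxq1* at 132 and 136 against 14.04 and 8.88 (11.7-fold). *Cp* was at 1005 and 1121 against 339 and 400.4 (2.88-fold) and *Pdk4* at 285 and 202 against 85.8 and 88.7 (2.79-fold). Since a cell entered by holding these transcripts, part of each level was fixed by the choice.

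Levels in cells chosen without the marker in question were close to these. In KO cells chosen by 3 or more of the other 5 markers, *Wfdc3* stood at 275 and 310 CPM, *Kcnj15* at 68.4 and 104, *Foxq1* at 109 and 123, and *Fam20a* at 55.2 and 75.1. WT cells chosen in the same way held *Wfdc3* at 5.48 and 10.5 and *Kcnj15* at 0.638 and 1.08. The 4 markers were also higher in KO cells taken without any marker condition. In a gate applied alike to both genotypes (keratin-positive, no *Ptprc* or *EYFP*, *Elf5* or *Plet1* detected, under 2 UMIs of *Prlr* plus *Cited1*, noncycling, no *Sox11* or *Crct1*), *Wfdc3* was at 217 and 248 in the 902 and 1136 KO cells and 7.79 and 10.4 in the 2345 and 1635 WT cells, and *Kcnj15* at 64.1 and 87.1 against 1.41 and 1.603. Of the gated KO cells, 54.1% and 56.8% held 3 or more markers, against 6.95% and 5.38% of gated WT cells. Thinned to 2000 UMIs, these shares were 21.0% and 24.2% against 0.405% and 0.315%. The markers were themselves chosen with earlier results of these data known. Dropping the condition on a cell does not undo that choice. A KO excess of these markers in the same libraries is therefore no independent evidence for the state.

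**Figure D2:**
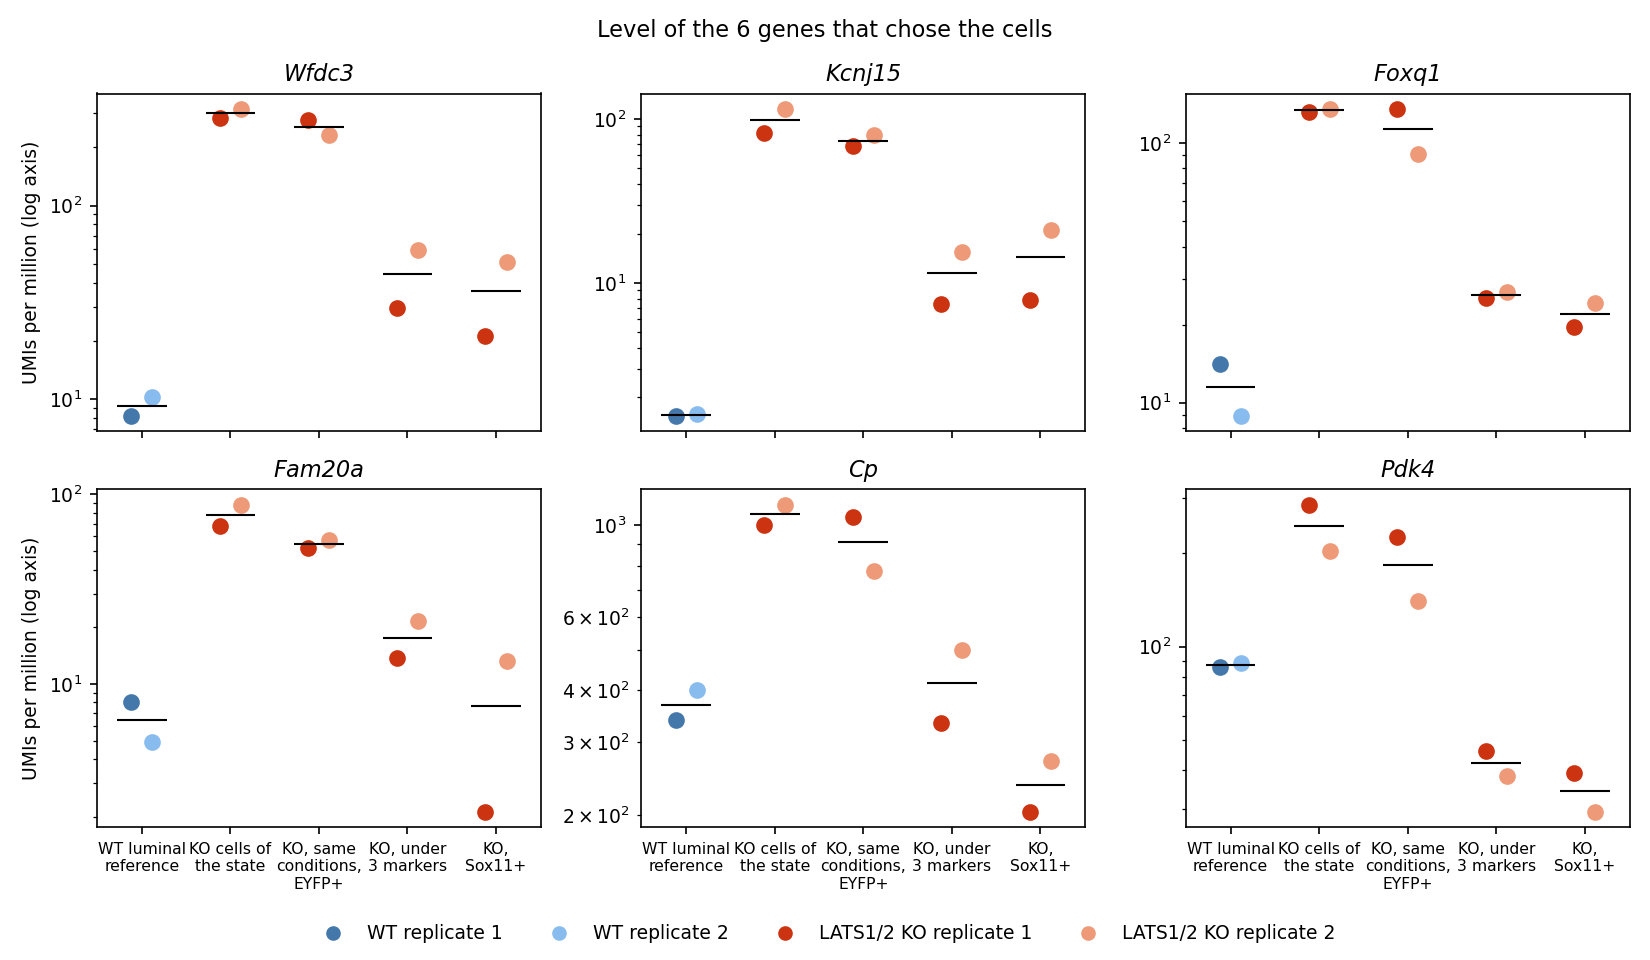
Level of each of the 6 markers in CPM (log axis) in the WT luminal reference and in 4 groups of KO cells; each point is 1 mouse and each line the mean of 2 mice. For Wfdc3, Kcnj15, Foxq1 and Fam20a the KO cells of the state lie above every other group apart from the EYFP-positive cells that met the same conditions, which overlap them for Foxq1 and lie just below them for the others.

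The label of a luminal state was checked against lineage markers. *Elf5* or *Plet1* was detected in 88.5% and 90.4% of the Wfdc3/Kcnj15 cells, and 75.1% and 80.7% passed the lineage gate of the WT reference. *Plet1*, a surface protein of hormone receptor-negative luminal cells, was nevertheless at 511 and 527 CPM against 4875 and 4548 in the WT reference, and *Elf5*, a transcription factor of the alveolar lineage, at 145 and 172 against 233 and 309.9. Both genes are part of the WT gate and are given without a test result. With the same gate in both genotypes the levels were 527 and 526 against 4905 and 4575 for *Plet1* and 149 and 165 against 232 and 309.9 for *Elf5*. Of the hormone-sensing genes, *Esr1* was at 5.97 and 4.07 against 3.52 and 3.22 and *Pgr* at 8.29 and 2.31 against 4.73 and 4.44 CPM, all low, and the KO values of *Pgr* lay on either side of the WT values. The basal keratin gene *Krt14* was detected in 64.0% and 48.1% of the cells, and 26.0% and 20.4% held 3 or more UMIs of it. Thinned to 2000 UMIs, *Krt14* was detected in 35.8% and 23.9% of them and in 0.888% and 1.19% of WT reference cells, and the free RNA estimated for the KO cells would by itself give 184 and 165 of their 403 and 319.8 CPM, or 85.04 and 75.02 at the share that *Igfbp2* allows.

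Both comparisons with WT were fitted with edgeR on UMIs summed per mouse, with Benjamini-Hochberg adjustment over all genes. The first set the Wfdc3/Kcnj15 cells against the WT reference and also carries the marker selection. The second, the gate comparison, applied the same gate to both genotypes with no marker condition. In the first, 5724 of 12400 genes (46.2%) passed an adjusted p of 0.05, of which 2829 (22.8%) were higher and 2895 (23.3%) lower in KO. In the second, 6111 of 12525 (48.8%) passed, with 3137 higher (25.0%) and 2974 lower (23.7%). Changes are relative to a scaling by TMM (trimmed mean of M values). Scaled to library totals the median gene was 0.34 (first) and 0.35 (second) higher in KO on the log2 scale, with 5238 genes called higher and 1481 lower in the first comparison and 5537 and 1579 in the second. After subtraction of the estimated free RNA 3299 and 2906 genes passed, and without WT replicate 1 the first comparison called 3806. Because so many genes passed, the counts of a list are read below against those shares. List counts with library totals are read against 5238 genes higher and 1481 lower of 12400. List counts after subtraction of free RNA are read against 1591 higher and 1708 lower of 11761. Several lists share members such as *Lcn2*, *Mt1* and *Mt2*. Log2 fold changes are given ± SE with the adjusted p of edgeR, for the first comparison unless the gate comparison is named.

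Hippo genes as a list lay near the shares of all genes. *Lats2*, itself a YAP/TAZ target, was higher (0.72 ± 0.13, adjusted p = 0.00375), also in the gate comparison (log2 fold change of 0.78 ± 0.13, adjusted p = 0.00155). *Lats1* passed as lower (log2 fold change of -0.36 ± 0.11, adjusted p = 0.037), a call that was lost in 13 of the 20 other settings tried, library totals among them (log2 fold change -0.01, adjusted p = 0.966). The coactivator genes did not pass: *Yap1* was at 40.9 and 45.4 CPM against 38.9 and 35.4, and *Wwtr1*, which encodes TAZ, at 164 and 179.9 against 128 and 114. Of 16 Hippo kinases and effectors tested, 4 were higher, 3 lower and 9 were not called. With library totals 10 were higher and 1 lower, where 5238 and 1481 of all 12400 genes were. Those higher were *Lats2*, *Tead1*, *Tead4* and *Vgll3*, those lower *Lats1*, *Tead2* and *Vgll4*. *Tead2* is listed under more than one gene in the matrix and is uncertain, and the call of *Tead1* (log2 fold change of 0.48 ± 0.14, adjusted p = 0.0269) was lost after free RNA was subtracted and without either WT replicate or KO replicate 1.

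Classical YAP/TAZ targets were more often higher than lower, but not all went the same way. *Ctgf*, a secreted matricellular protein, was at 206 and 285 CPM against 17.01 and 12.6 (3.69 ± 0.20, adjusted p = 3.81e-05), with both KO mice well above both WT mice. *Ankrd1*, a nuclear ankyrin-repeat protein, was at 62.8 and 75.3 against 3.85 and 0.573 (4.52 ± 0.47, adjusted p = 0.000398). *Cyr61*, the closest relative of *Ctgf*, was already high in WT, at 702 and 696, and was at 730.2 and 909.9 in KO, which did not pass (adjusted p = 0.471). *Amotl2*, a feedback inhibitor of YAP, was lower (log2 fold change of -0.46 ± 0.13, adjusted p = 0.022), though not with library totals (adjusted p = 0.485), as were *F3*, *Crim1* and *Tgfb2*. Of 22 targets tested 11 were higher and 4 lower, with a median log2 fold change of 0.57, while the median of all genes tested was -0.01, and after free RNA was subtracted 10 of 21 were higher and 3 lower. The free RNA estimate was 56.8 and 98.7 CPM of *Ctgf* and 32.5 and 28.9 of *Ankrd1*. *Ctgf* stood at 1118 and 1446 in the Sox11-positive KO cells, at 324 and 636 in *EYFP*-positive cells that met the other conditions and at 302 and 715 in cells with under 3 markers, so the Wfdc3/Kcnj15 cells held the lowest *Ctgf* level of these KO groups in both mice.

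**Figure D3:**
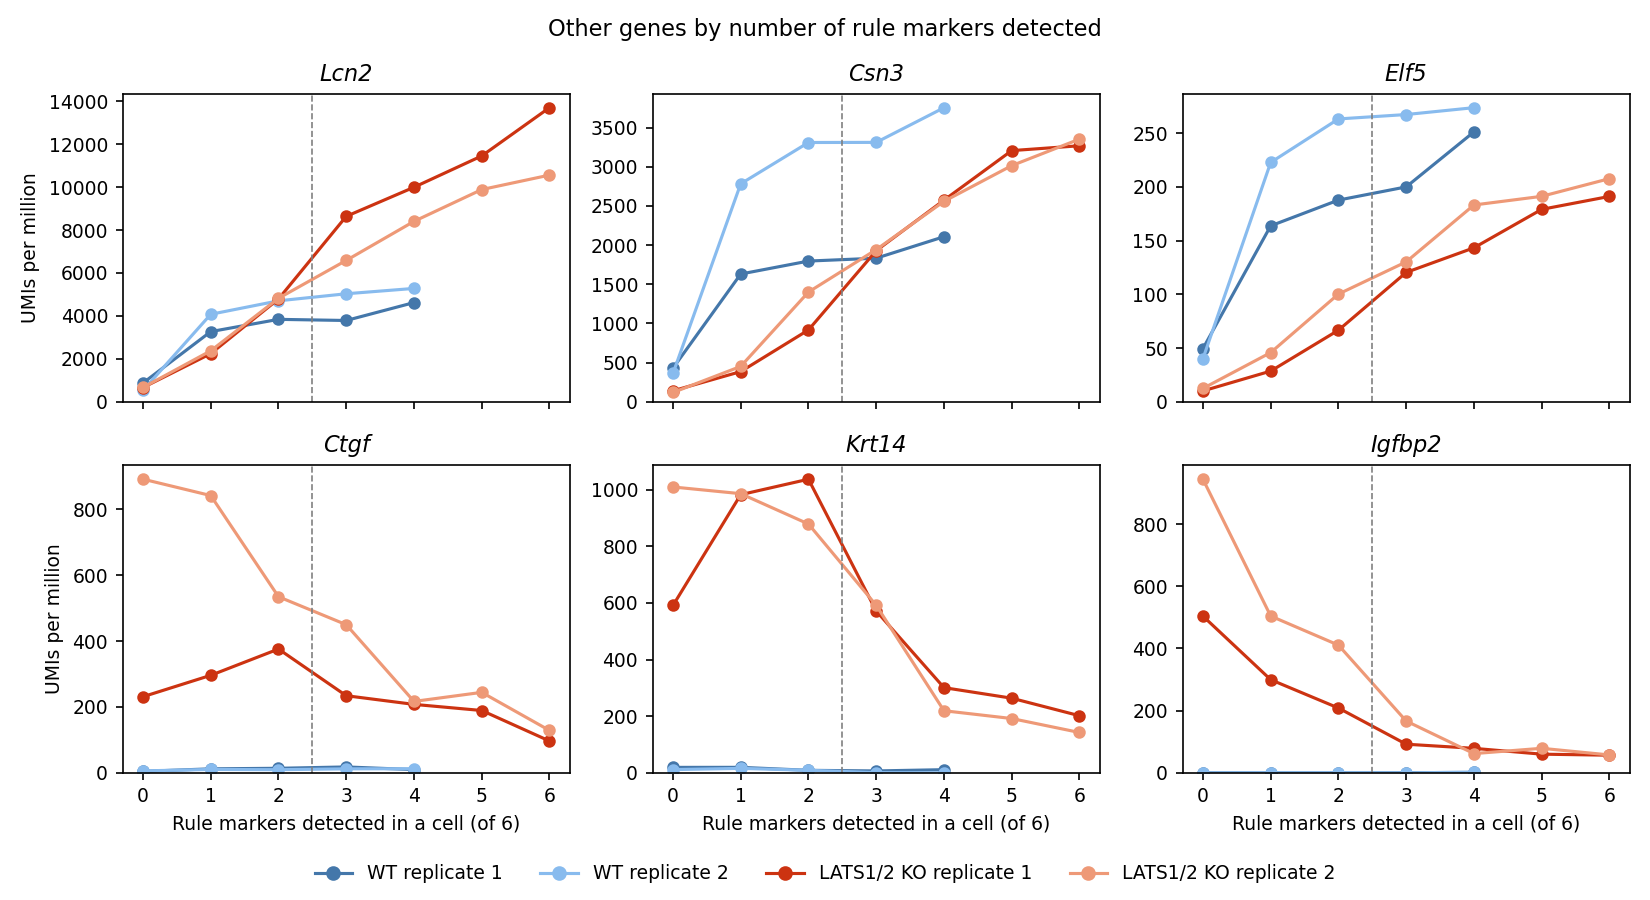
Level of 6 genes other than the 6 markers, in CPM, by the number of rule markers detected in a cell, for each mouse (WT in blues, LATS1/2 KO in reds; bins of under 20 cells left out; the dashed line marks the limit of 3). In KO mice Lcn2, Csn3 and Elf5 are higher and Ctgf, Krt14 and Igfbp2 lower with 6 markers than with 2, while Ctgf, Krt14 and Igfbp2 stay far below the KO levels in WT mice.

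Within the KO mice, *Lcn2*, *Csn3*, *Elf5* and *Trf* were higher, and *Ctgf*, *Ankrd1*, *Krt14* and *Igfbp2* lower, in cells with 6 markers than in cells with 2. *Lcn2*, which encodes the iron-siderophore binder lipocalin 2, went from 4789 and 4821 CPM in cells with 2 markers to 8638 and 6586 with 3 and 13702 and 10559 with 6. *Csn3*, the kappa-casein gene, went from 917 and 1401 through 1929 and 1943 to 3269 and 3354. *Elf5* went from 66.7 and 100.3 to 191 and 208 between 2 and 6 markers, and the transferrin gene *Trf* from 191 and 378 to 718 and 1087. *Ankrd1* went from 100.4 and 171 to 39.9 and 43.8. The YAP/TAZ target *Cyr61* did not go the same way, at 579 and 780.1 with 2 markers, 818 and 945 with 3 and 647 and 862 with 6. *Ctgf* went from 376 and 535 with 2 markers to 96.6 and 129 with 6, *Krt14* from 1037 and 879 to 202 and 142, and *Igfbp2* from 209 and 411 to 56.7 and 57.5. The collagen gene *Col1a1*, which luminal cells are not known to make, also went down along this axis, from 156 and 285 to 50.4 and 85.0, and depth went up, and their part in the gradient was not tested. In WT mice the step from 2 to 4 markers was smaller for *Lcn2*, from 3840.3 and 4703 to 4621 and 5281. The KO cells with 4 markers held *Lcn2* at 9994 and 8404. Only 31 and 24 WT cells held 4 markers.

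The genes with the largest increase over the WT reference were of several kinds. *Slpi*, a secreted inhibitor of leukocyte proteases, rose from 12.6 and 14.3 in the WT replicates to 582 and 487 CPM in the KO replicates (4.97 ± 0.15, adjusted p = 6.31e-06). *Slc6a6*, the taurine transporter, rose from 7.82 and 12.03 to 291 and 331 (4.63 ± 0.20, adjusted p = 2.1e-05). *Ifi27l2a*, an interferon-inducible gene, rose from 3.08 and 1.79 to 142 and 233 (5.88 ± 0.32, adjusted p = 3.63e-05). The groups did not overlap in any of the 12 genes with the largest increases, as the naming rule required. *Pla2g7*, the platelet-activating factor acetylhydrolase, rose from 0.3303 and 1.07 to 68.8 and 56.7 (6.20 ± 0.31, adjusted p = 3.02e-05), and *Cda*, cytidine deaminase, from 2.09 and 1.22 to 47.4 and 53.3 (4.54 ± 0.21, adjusted p = 2.33e-05). The estimated free RNA was a small part of the level for these 5 genes, at 58.7 and 74.4 CPM for *Slpi* and 7.58 and 9.499 for *Pla2g7*.

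For others in that top 12, the free RNA estimate was high relative to the level or 1 mouse carried it. *Igfbp2*, an insulin-like growth factor binding protein, was at 79.01 and 98.99 CPM against 0.275 and 0.573 (7.40 ± 0.25, adjusted p = 1.03e-05), while the free RNA estimate of 171 and 218 exceeded that level and Sox11-positive cells held 6654 and 6701. *Krt14* was at 403 and 319.8 against 10.4 and 10.5 (4.76 ± 0.15, adjusted p = 8.55e-06), with 184 and 165 estimated as free. *Ctla2a*, a cysteine protease inhibitor, was at 46.6 and 58.6 and the matrix gene *Postn* at 132 and 128, with 23.5 and 37.7 and 55.1 and 75.7 estimated as free. At the highest share that *Igfbp2* allows, the free part would be 85.04 and 75.02 CPM of *Krt14*. For *Ctla2a* it would be 10.8 and 17.1, and for *Postn* 25.4 and 34.4. That share takes free RNA to have the makeup of the whole library. It would leave part of the collagen level unaccounted for, so it is no limit on fibroblast RNA such as *Postn*. *Cfd*, the adipocyte protease adipsin, was at 2.51 in KO replicate 1 and 166 in replicate 2 against 0.05505 and 0.0716 in WT, so replicate 2 decided its fold change (9.86 ± 2.27, adjusted p = 0.011). *Serpina3n*, an acute-phase serpin, was likewise at 9.44 and 105 against 1.16 and 1.15 and was no longer called once free RNA was subtracted.

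**Figure D4:**
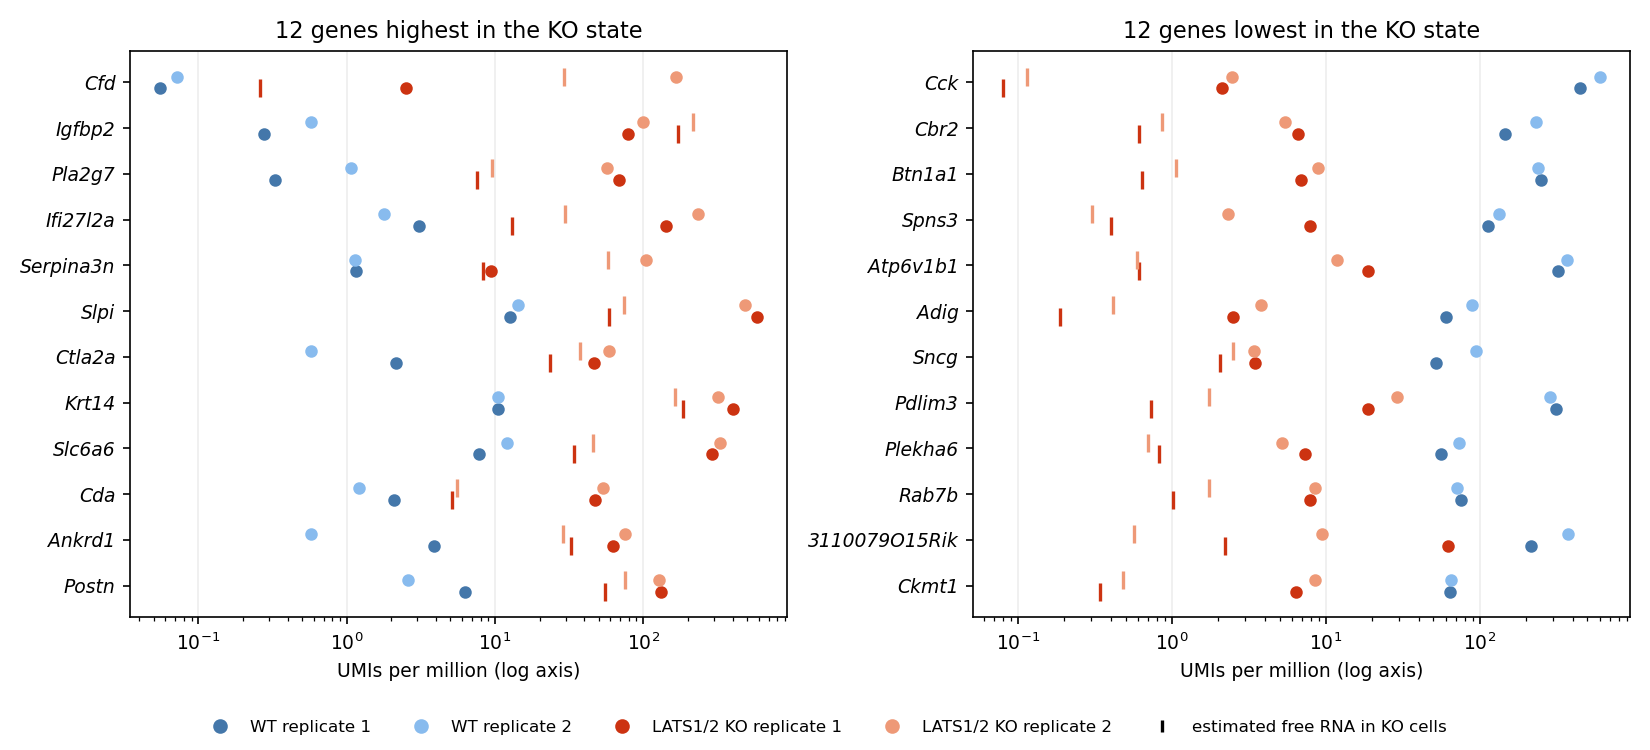
The 12 called genes with the largest increases (left) and the 12 with the largest decreases (right) in the state against the WT reference, in CPM (log axis); each point is 1 mouse and a vertical tick marks the level that the estimated free RNA would give in that KO mouse. For Igfbp2 the ticks lie to the right of the points, and for all 12 genes on the right both KO points lie left of both WT points.

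The genes with the largest decreases were also of several kinds. *Cck*, the cholecystokinin hormone gene, was at 444 and 602 CPM in WT and 2.12 and 2.44 in the Wfdc3/Kcnj15 cells (-8.17 ± 0.24, adjusted p = 6.31e-06). *Btn1a1*, a membrane protein of the milk fat globule, fell from 248 and 239 to 6.94 and 8.95 (-5.26 ± 0.14, adjusted p = 6.31e-06). *Atp6v1b1*, a proton pump subunit, fell from 321 and 367 to 18.7 and 11.8 (-4.87 ± 0.21, adjusted p = 2.1e-05). In each case both KO values were far below both WT values. *Cbr2*, carbonyl reductase 2, fell from 145 and 232 to 6.55 and 5.42, *Pdlim3*, an actinin-binding protein, from 311 and 285 to 18.9 and 28.9, and the mitochondrial creatine kinase gene *Ckmt1* from 63.96 and 64.9 to 6.36 and 8.54. *Spns3*, *Adig*, *Sncg*, *Plekha6* and *Rab7b* completed the list with log2 fold changes of -5.04, -4.85, -4.76, -3.75 and -3.50, together with the uncharacterised *3110079O15Rik*, for which the KO mice differed (61.7 and 9.49 against 214 and 375). These losses were not limited to the state: in KO cells with under 3 markers *Cck* was at 0.783 and 0, *Btn1a1* at 2.48 and 9.999 and *Atp6v1b1* at 3.65 and 4.83 CPM. All 24 of these genes kept their direction in the gate comparison.

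By cell identity, the hormone receptor-negative program was lowered in part. Of 13 luminal progenitor genes tested 2 were higher and 7 lower (median log2 fold change -1.10), and 1 was higher and 8 lower in the gate comparison. *Lcn2* was at 10020.0 and 8528 CPM against 4484 and 5349 (0.57 ± 0.14, adjusted p = 0.0151), a call that was lost without WT replicate 1, and *Wfdc18* at 7366 and 8264 against 3124 and 4024 (0.78 ± 0.15, adjusted p = 0.00499). *Trf* was at 497 and 796 against 1362 and 1752 (-1.62 ± 0.23, adjusted p = 0.00138) and *Aldh1a3*, an aldehyde dehydrogenase of progenitors, at 231 and 154 against 386 and 409 (-1.39 ± 0.19, adjusted p = 0.00114). The receptor gene *Kit* was at 214 and 289 against 236 and 246 and did not pass (adjusted p = 0.14). Of 11 hormone-sensing genes 5 (*Areg*, *Tnfsf11*, *Ly6a*, *Prom1* and *Greb1*) were higher and none lower, but with the gate, which leaves out *Prlr*- and *Cited1*-rich cells on both sides, 1 of 9 was higher and 3 lower. *Areg*, the EGF-family ligand of hormone-sensing cells, showed that dependence: it was at 258 and 58.9 against 11.01 and 6.44 (3.80 ± 0.67, adjusted p = 0.0035), and its call was lost among the cells that passed the lineage gate.

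Basal and myoepithelial genes were more often higher than lower. Of 14 tested 6 were higher, 1 lower and 7 not called (median log2 fold change 0.82), and the gate comparison gave the same counts. *Krt5* was at 61.1 and 54.6 CPM against 3.36 and 3.37 (3.75 ± 0.14, adjusted p = 1.41e-05) and *Krt17* at 107 and 72.5 against 6.0 and 7.88 (3.35 ± 0.23, adjusted p = 8.49e-05). *Acta2*, smooth muscle actin, was at 141 and 117 against 22.5 and 33.4 (1.86 ± 0.20, adjusted p = 0.000434) and lost its call after free RNA was subtracted, when 5 of 13 genes were higher. *Trp63*, the transcription factor that defines basal cells, was at 1.93 and 2.98 against 1.38 and 0.358 and did not pass (adjusted p = 0.157). It passed as higher with 2 or more markers (adjusted p = 0.00605) and with free RNA subtracted (0.0300). The log2 fold change after subtraction, 4.19, rests on low WT counts that the subtraction can lower too far. Without WT replicate 1 the log2 fold change of *Trp63* was 2.42. The oxytocin receptor gene *Oxtr* was lower (log2 fold change of -2.22 ± 0.48, adjusted p = 0.00838). *Krt8* and *Krt18*, used in the rule, stood at 4008 and 3463 and 6029 and 5744 against 3417 and 3499 and 4613 and 4474. The cells therefore held luminal keratin RNA near or above the WT level together with basal keratin RNA, with *Trp63* at a few CPM or less.

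Those secreted defence genes of the WFDC family that could be tested were higher than in WT. All 5 WFDC-family genes tested (*Slpi*, *Wfdc2*, *Wfdc12*, *Wfdc17* and *Wfdc18*) were higher, of 9 in the matrix besides *Wfdc3* (median log2 fold change 3.51; 4 of 5 after free RNA was subtracted), against 22.8% of all genes. *Wfdc2* was at 981 and 747 CPM against 47.01 and 60.9 (3.66 ± 0.19, adjusted p = 3.46e-05). *Wfdc12* was at 26.4 and 25.9 against 4.73 and 5.299, and its call was lost with free RNA subtracted. *Wfdc17* was at 9.06 and 14.9 against 0.2202 and 1.58. DESeq2 tested 7 genes of the family, of which 6 were higher and 1 was not called. *Slpi*, *Wfdc2* and *Wfdc18* were not at least 2-fold higher in the state than in KO cells with under 3 markers in both mice. *Slpi* and *Wfdc18* were at least 2-fold higher than in Sox11-positive KO cells in both mice. Among 18 acute-phase and mucosal defence genes 9 were higher and 7 lower. The lipopolysaccharide-binding protein gene *Lbp* was at 157 and 199 against 12.1 and 16.8 (3.28 ± 0.19, adjusted p = 4.39e-05) and haptoglobin, *Hp*, at 326 and 317 against 38.1 and 117 (1.71 ± 0.43, adjusted p = 0.0157), a call that was lost with DESeq2 and with free RNA subtracted. The complement gene *C3* went the other way, from 387 and 399 to 75.4 and 84.9 (-2.64 ± 0.11, adjusted p = 1.73e-05), as did *Ltf*, *Pigr*, *Cxcl2*, *Nfkbia*, *Nfkbiz* and *Steap4*, of which *Ltf* lost its call in 7 of the 20 other settings. After free RNA was subtracted 5 of 16 of this list were higher and 4 lower.

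Genes of glucocorticoid response and of fat use were higher beside *Pdk4*. Of 14 genes of glucocorticoid response 9 were higher and 1, *Errfi1*, lower (median log2 fold change 0.76; 7 and 0 of 13 after free RNA was subtracted). *Fkbp5*, a co-chaperone of the glucocorticoid receptor, was at 86.9 and 119 CPM against 12.9 and 10.6 (2.78 ± 0.18, adjusted p = 6.32e-05). *Zbtb16*, a zinc finger repressor, was at 32.8 and 32.1 against 2.15 and 3.22 (3.27 ± 0.20, adjusted p = 5.19e-05). The metallothionein genes *Mt1* and *Mt2*, which also respond to metals, were at 1065 and 1822 and 291 and 525 against 121 and 162 and 14.97 and 18.1, and the call of *Mt1* was lost when free RNA was subtracted. *Per1* was at 22.7 and 37.02 against 33.6 and 34.9, and the receptor gene *Nr3c1* at 51.6 and 50.7 against 50.3 and 40.7, and neither passed.

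Of 21 genes of PPAR response, fatty acid oxidation and ketogenesis 12 were higher and none lower (median log2 fold change 0.80), and in the gate comparison 10 of 20 were higher and 1 lower. *Cpt1a*, which brings fatty acids into mitochondria, was at 75.2 and 56.95 CPM against 5.06 and 4.73 (3.39 ± 0.18, adjusted p = 3.45e-05). *Ucp2*, a mitochondrial carrier, was at 478 and 336 against 69.6 and 75.9 (2.14 ± 0.18, adjusted p = 0.000167) and the lipid droplet coat gene *Plin2* at 853 and 629 against 151 and 121 (2.10 ± 0.18, adjusted p = 0.0002). *Acadl* was at 588 and 436 against 127 and 90.7 and *Angptl4* at 231 and 136 against 60.1 and 32.8. The higher members include *Fabp4* and *Cd36*, which endothelial cells and adipocytes also express, and *Fabp4* stood at 819 and 284 in KO cells with under 3 markers. After free RNA was subtracted 9 of 21 were higher and none lower. The nuclear receptor gene *Pparg* was at 1.93 and 1.76 against 0.936 and 1.003 and did not pass.

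Beside ceruloplasmin, 7 of 17 genes of iron and copper handling were higher and 5 (*Trf*, *Tfrc*, *Slc11a2*, *Steap4* and *Ltf*) lower, and with library totals 10 and 3. The ferritin heavy chain gene *Fth1* was at 5832 and 5559 CPM against 2094 and 1897 (1.17 ± 0.11, adjusted p = 0.000301). The iron exporter gene *Slc40a1* was at 12.3 and 21.7 against 4.95 and 4.87 (1.47 ± 0.27, adjusted p = 0.00405), while the transferrin receptor gene *Tfrc* was lower, at 15.03 and 18.04 against 31.9 and 31.4 (-1.27 ± 0.13, adjusted p = 0.000371). Beside *Kcnj15*, 4 of 14 genes of ion transport (among them *Slc12a2*, *Scnn1a* and *Slc5a8*) were higher and 5 (*Kcnk5*, *Kcne3*, *Scnn1b*, *Slc34a2* and *Aqp5*) lower. The sodium-potassium-chloride cotransporter gene *Slc12a2* was at 192 and 140.4 against 63.5 and 61.01 (1.07 ± 0.15, adjusted p = 0.00154), though not after free RNA was subtracted (adjusted p = 0.0999). The potassium channel gene *Kcnk5* was lower, at 28.1 and 29.4 against 69.4 and 75.2 (-1.67 ± 0.11, adjusted p = 6.66e-05), and the water channel gene *Aqp5* at 105 and 90.7 against 186 and 227 (-1.43 ± 0.14, adjusted p = 0.000288).

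Matrix genes were higher nearly throughout. Of 15 laminin and matrix genes 14 were higher and none lower (median log2 fold change 1.77), with the same counts in the gate comparison and 10 higher after free RNA was subtracted. *Lama5* was at 56.5 and 66.7 CPM against 17.6 and 15.5 (1.55 ± 0.13, adjusted p = 0.000175) and *Lamb3*, a chain of the laminin of epithelial hemidesmosomes, at 30.8 and 29.97 against 7.16 and 6.803 (1.77 ± 0.13, adjusted p = 0.000116), with free RNA estimated at 8.66 and 12.01 for *Lama5* and 5.45 and 6.32 for *Lamb3*, and the call of *Lama5* was lost when it was subtracted (adjusted p = 0.0695). For *Fn1* (56.3 and 41.1 against 5.83 and 1.43) and *Tnc* (38.9 and 27.3 against 1.27 and 2.22), which fibroblasts also make, the free estimates were 27.5 and 23.5 and 14.7 and 12.6. Of 20 focal adhesion, integrin and actin genes 13 were higher, 3 lower and 4 not called, or 11, 3 and 6 after free RNA was subtracted. *Itgb1*, the shared beta chain of matrix receptors, was at 383 and 351 against 129 and 148 (1.06 ± 0.11, adjusted p = 0.000481), whereas *Itga2* and *Itgav* were lower (-1.56 ± 0.29, adjusted p = 0.00453 and -0.86 ± 0.10, adjusted p = 0.000764), as was the vinculin gene *Vcl*. These lists moved together with the fibroblast marker sum, of which 7 of 8 genes were called higher and 1 of 5 after free RNA was subtracted.

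Barrier and secretion genes were more often lower than higher. Of 16 tight junction and apical genes 8 were lower and 1 higher (median log2 fold change -0.58). *Tjp3*, a junction scaffold, was at 23.3 and 25.2 CPM against 96.3 and 101 (-2.37 ± 0.11, adjusted p = 2.33e-05) and *Ocln*, occludin, at 45.3 and 42.6 against 89.7 and 83.3 (-1.33 ± 0.10, adjusted p = 0.000132). *Cldn1* was the gene that was higher (log2 fold change of 0.59 ± 0.14, adjusted p = 0.0113), and that call was not made after free RNA was subtracted, when 8 of 16 were lower and none higher. Of 17 milk protein and lipid secretion genes 10 were lower and 2, *Plin2* and *Scd2*, higher (median log2 fold change -0.97). *Lalba*, alpha-lactalbumin, was at 0.771 and 0.949 against 14.5 and 27.2 (-4.89 ± 0.49, adjusted p = 0.000343). *Csn3* did not pass in the first comparison, at 2477 and 2599.7 against 2095 and 3669.9 (adjusted p = 0.106; lower at 0.00214 without WT replicate 1), and was lower in the gate comparison (log2 fold change of -0.71 ± 0.22, adjusted p = 0.0285).

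**Figure D5:**
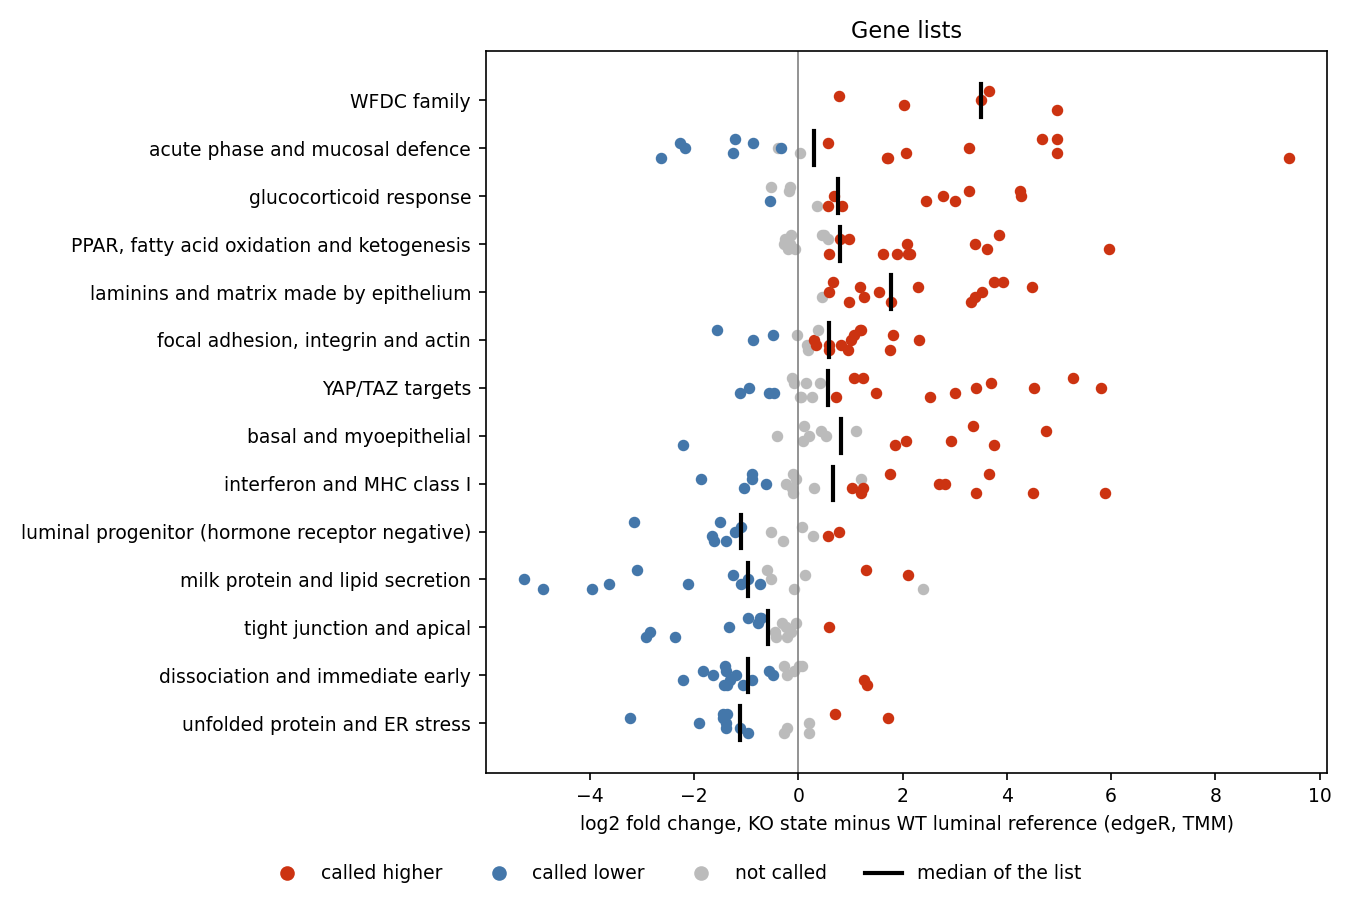
Log2 fold change of the tested genes of 14 lists in the state minus the WT reference (edgeR with TMM scaling); red points were called higher, blue points lower, grey points were not called, and black bars are list medians. WFDC and matrix genes lie almost wholly to the right of 0 and luminal progenitor, milk, immediate early and ER stress genes mostly to the left; Saa3, with no UMI in the WT sums, is the point near 9 and is drawn at its fitted value.

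Among 22 epithelial transcription factors 4 (*Foxc1*, *Sox10*, *Sox4* and *Hes1*) were higher and 9 lower, and 7 higher and 5 lower with library totals. *Sox10*, a neural crest and progenitor factor, was at 82.3 and 77.97 CPM against 31.05 and 45.3 (0.73 ± 0.18, adjusted p = 0.0136; 0.0565 without WT replicate 1), and *Hes1*, a repressor downstream of Notch, at 522 and 745 against 266 and 309 (0.79 ± 0.17, adjusted p = 0.00868). *Klf4* was at 326 and 454 against 781 and 892 (-1.45 ± 0.17, adjusted p = 0.000607) and *Cebpb* at 551 and 476 against 1506 and 1041 (-1.66 ± 0.18, adjusted p = 0.000552), both lower. The Notch list was divided, with 4 of 15 genes higher and 7 lower: the ligand genes *Jag1* (3.23 ± 0.31, adjusted p = 0.000301) and *Jag2* were higher with *Hes1* and *Hes6*, while *Notch1* (-1.03 ± 0.14, adjusted p = 0.00134), *Notch3* and the targets *Hey1*, *Hey2*, *Heyl* and *Nrarp* were lower together with *Maml2*. *Jag1* stayed low in level, at 21.6 and 13.7 against 1.65 and 1.22.

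Genes that epithelium can use to address stroma and leukocytes were split, with 9 of 21 higher and 6 lower, and 3 of 18 and 6 after free RNA was subtracted. *Pdgfa*, a growth factor for fibroblasts, was at 76.9 and 87.5 CPM against 28.2 and 32.6 (1.09 ± 0.12, adjusted p = 0.000547) and *Tgfb1* at 34.7 and 41.2 against 13.5 and 14.9 (1.08 ± 0.13, adjusted p = 0.00084), the latter call being lost with free RNA subtracted. *Csf3*, the granulocyte colony-stimulating factor gene, was lower, at 11.4 and 8.68 against 83.7 and 76.8 (-3.37 ± 0.15, adjusted p = 2.33e-05), as were *Tgfb2* and *Tgfb3*. *Ccl2* was at 10.4 and 11.7 against 0.661 and 0.501, with 5.73 and 8.68 estimated as free RNA.

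Of 22 interferon and MHC class I genes 10 were higher and 5 lower, and 10 and 2 after free RNA was subtracted. *Irf7*, a regulator of type I interferon genes, was at 125 and 166 CPM against 16.5 and 18.7 (2.71 ± 0.16, adjusted p = 4.6e-05) and *Ifit1* at 48.8 and 86.7 against 8.86 and 6.16 (2.82 ± 0.29, adjusted p = 0.000388), higher in replicate 2 than in replicate 1. *Irf1* was lower, at 31.8 and 32.1 against 50.3 and 53.5 (-1.05 ± 0.11, adjusted p = 0.000369), as were *Psmb8*, *Psmb9* and *H2-K1*. Immediate early genes, which also respond to dissociation, were lower: 13 of 20 fell and 2 were higher (median log2 fold change -0.97). *Fos* was at 1694 and 1853 against 2862 and 4282 (-1.36 ± 0.19, adjusted p = 0.00138) and *Atf3* at 1109.8 and 1126 against 2431 and 2291 (-1.43 ± 0.10, adjusted p = 0.000108), while the 2 that were higher were the heat shock genes *Hspa1a* and *Hspa1b* (1.31 ± 0.17, adjusted p = 0.000905 and 1.26 ± 0.17, adjusted p = 0.00114), which are near-identical copies and are therefore uncertain one by one. Of 15 genes of the unfolded protein response 9 were lower and 2, *Trib3* and *Xbp1*, higher. The chaperone gene *Hspa5* was at 557 and 585 against 1128 and 1198 (-1.37 ± 0.10, adjusted p = 0.000116).

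Within the KO mice the state was compared with other groups of cells without a test, since the rule made the groups. Genes at 50 or more CPM that differed at least 2-fold in the same direction in both mice were counted. Against *EYFP*-positive cells that met every other condition (54 and 95 cells), 4 of 3186 genes were higher in the state and 10 lower. The lower ones were *Igfbp2*, at 79.01 and 98.99 against 401 and 386 CPM, *Sema3c*, *Foxj1*, *Bex1*, *Prss23*, *Slc25a48*, *Sbsn*, *Pmp22*, *Htra1* and *Timp3*. The higher ones were *Krt5*, at 61.1 and 54.6 against 13.6 and 15.8, *Tagln*, *Ptn* and *Fabp4*. *Wfdc3* was at 284 and 315 against 277 and 230.3 and *Kcnj15* at 82.3 and 115 against 67.9 and 79.7 in these groups. Few genes thus set reporter-negative and reporter-positive marker cells apart by this measure, which asks for a 2-fold difference in both mice. The *EYFP*-positive cells were few and deeper, with medians of 8400.5 and 12088 UMIs against 6964 and 7930 in the state. Smaller differences were not tested. Against the 305 and 283 Sox11-positive cells the count was 217 higher and 307 lower of 3540.

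Against the 1524 and 1214 *EYFP*-negative cells with under 3 markers, 31 of 3265 genes (0.949%) were at least 2-fold higher in the state in both mice and 126 (3.86%) were lower. KO replicate 1 alone gave 91 and 181, and replicate 2 alone 40 and 119. Several of the leading genes encode milk or other secreted proteins. *Spp1*, which encodes the secreted phosphoprotein osteopontin, was at 965 and 917 CPM against 187 and 129, *Trf* at 497 and 796 against 106 and 244, *Csn3* at 2477 and 2599.7 against 478 and 813 and *Igfbp5* at 1099 and 1405 against 244 and 444. *Scd1*, a fatty acid desaturase, was at 424 and 914 against 84.3 and 311, *Cd14*, a receptor for lipopolysaccharide, at 856 and 498 against 247 and 179, and lactoferrin, *Ltf*, at 411 and 235 against 83.7 and 84.8. *Nav3*, *Muc15*, *Chpt1*, *Arhgef6* and *Anpep* completed the leading 12. Against WT these genes did not share a direction: *Scd1* was higher (log2 fold change of 2.49 ± 0.35, adjusted p = 0.00144), *Muc15* lower (log2 fold change of -2.92 ± 0.16, adjusted p = 4.4e-05), and *Spp1*, which differed between the WT mice at 24.4 and 259, did not pass (adjusted p = 0.0548), though it passed as higher in 12 of the 20 other settings.

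The cells with under 3 markers were a mixture, which bears on what was lower in the state. The leading genes were *Sprr1a*, *Tspan1*, *Ptn*, *R3hdml*, *Fam25c*, *Pcp4*, *AW112010*, *Ffar4*, *Gipc2*, *Calca*, *Aqp1* and *Areg*. *Areg* was at 258 and 58.9 CPM in the state against 1422 and 520.5 and *Pcp4* at 229.5 and 36.7 against 1593 and 492. The fibroblast marker sum of those cells was 3403 and 2291. Limited to the 414 and 491 of them that passed the lineage gate, with the state limited to its 488 and 645 gated cells, 3 of 3189 genes were higher in the state (*Spp1*, *Hp* and *Trf*) and 24 lower. Those 24 included *Igfbp2*, *Krt14*, *Krt17*, *Ankrd1*, *Ctgf*, *Inhba*, *Fn1* and *Tnc*, and the fibroblast marker sum of the gated cells with under 3 markers was 1737 and 918. *Igfbp2* was at 352 and 465 and *Krt14* at 1024 and 783 in those gated cells. *Krt14*, *Krt17*, *Ctgf* and *Ankrd1* were thus lower in the state than in the other gated KO luminal cells, and higher than in the WT reference.

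The 2 KO mice resembled each other in the state. Of 2989 genes at 50 or more CPM 22 differed at least 2-fold between the mice and 7 at least 4-fold, against 9 and 2 of 2455 between the WT mice in the reference. The 7 were *Cfd*, *Serpina3n*, *Areg*, *Pcp4*, *Ptn* and the predicted genes *Gm10709* and *Gm8730*. *Ptn* was at 151 in replicate 1 and 19.3 in replicate 2. Since the replicates differ in the number of *EYFP* alleles as well as in mouse, the source of such differences cannot be told apart.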

How the data were processed

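Single cells of the mammary glands of 4 mice were profiled with 10x Genomics 3' v3 chemistry after sorting of live, Calcein Blue-stained cells. The authors deposited UMI counts per gene and cell (28693 genes, mm10). The submitters' processing notes name Cell Ranger 3.1.0, and the matrix headers 6.1.2. A barcode was kept above 500 detected genes and below a 20% share of mitochondrial transcripts, and no doublet caller was run. The members and gene lists were chosen with earlier results of these data known.

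Counts were summed per mouse and group and fitted with edgeR 4.0.16 (R 4.3.3; quasi-likelihood F test, TMM, filterByExpr, Benjamini-Hochberg threshold 0.05), which was also tested on simulated counts. SEs were derived from the F statistic. P-values rest on 2 mice per group, and intervals cover counting error only. Free RNA was estimated as the collagen level of a group relative to its whole library, so that collagen made by the cells would count as free. Named genes were the 12 called genes with the largest increase and the 12 with the largest decrease (groups not overlapping, at least 50 CPM in the higher group), the same number against KO cells with under 3 markers, up to 4 per list by adjusted p, and *Lats1*, *Lats2*, *Yap1*, *Wwtr1*, *Tead1*, *Ctgf*, *Cyr61*, *Ankrd1*, *Krt14*, *Krt5* and *Igfbp2*. Other genes named were chosen after their values were seen. Alternatives changed the scaling, test, filters, marker number, depth and libraries. Of the gene symbols, 58 are listed more than once.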

Additional observations from a re-analysis of the deposited data

How the results depend on the processing

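The mean share of Wfdc3/Kcnj15 cells was 20.1% in KO and 5.82% in WT, and moved to 31.6% and 27.3% with 2 or more markers (27.1% in KO replicate 1, below the 27.5% of WT replicate 1), 10.8% and 0.791% with 4 or more, and 8.87% and 0.199% in cells thinned to 2000 UMIs. Against the WT reference, the 5724 calls (2829 higher, 2895 lower) became 3299 (1591, 1708) with free RNA subtracted and 2575 (1410, 1165) at a log2 fold change of at least 1, and the split became 5238 and 1481 with library totals. In the gate comparison, the 6111 calls (3137, 2974) became 2906 (1380, 1526) and 2750 (1553, 1197), with a split of 5537 and 1579 with library totals. DESeq2 called 4062 and 4388 genes. Leaving out 1 library gave 3806 to 5693 calls (1922 to 2863 higher, 1884 to 2830 lower) against the reference and 4989 to 5881 (2571 to 2864, 2418 to 3017) with the gate. Against KO cells with under 3 markers, the 31 higher and 126 lower genes became 8 and 20 against gated cells and 3 and 24 with both groups gated, and single mice gave 40 to 91 and 119 to 181. With replicate number as a replicate block, 5580 (2764, 2816) and 6021 (3091, 2930) genes passed; same-numbered samples deviated with correlations of -0.00778 and 0.0311, so the numbers share only a name. The cause of these changes was not tested.

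Over 162 named genes and 20 settings, 3126 of 3231 values kept their call and direction, 75 lost and 29 gained a call, and 1 reversed: *Pgr* went from -0.23 to 6.11 on the log2 scale with free RNA subtracted, at levels of a few CPM. Free RNA subtraction, library totals and the doubly gated comparison were chosen after seeing the data. Genes near 1 CPM are limited by depth.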

Other observations

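Gene groups outside the roles above were compared with the WT luminal reference in the same way (edgeR, adjusted over all genes), and most lay near the shares of all genes, 22.8% higher and 23.3% lower, so that the counts say little about these groups as such. Of 9 genes of insulin-like growth factor binding 5 were higher and 1 lower. *Igfbp7* rose from 69.6 and 60.8 to 442 and 435 CPM (2.40 ± 0.11, adjusted p = 2.33e-05), while *Igfbp5*, the most abundant of the family in WT, fell from 3299 and 3754 to 1099 and 1405 (-1.84 ± 0.15, adjusted p = 0.000147). Antioxidant genes went both ways, with 4 of 14 higher and 5 lower. *Gpx2*, a glutathione peroxidase of epithelia, was at 18.1 and 16.95 against 0.165 and 0.143 (6.37 ± 0.31, adjusted p = 2.61e-05), and the quinone reductase gene *Nqo1* at 11.8 and 10.98 against 77.8 and 86.2 (-3.20 ± 0.13, adjusted p = 1.56e-05). Of 14 p53 and senescence genes 4 were higher and 4 lower, or 10 and 4 with library totals, where 5238 and 1481 of 12400 genes were. *Cdkn1a*, the cell cycle inhibitor p21, fell from 333 and 391 to 188 and 199 (-1.25 ± 0.12, adjusted p = 0.000262), whereas the inhibitor gene *Cdkn2b* rose from 1.101 and 0.931 to 15.4 and 10.4 (3.28 ± 0.31, adjusted p = 0.000277).

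Around the marker *Fam20a*, 2 of 9 secretory kinase and mineralization genes were higher and 3 lower, and none of 9 and 3 after free RNA was subtracted. The higher ones were *Mgp*, lost under that subtraction, and *Fam20c*, low throughout at 3.85 and 4.07 CPM against 1.38 and 1.93, whose call was lost in 14 of the 20 other settings. Alkaline phosphatase, *Alpl*, fell from 76.2 and 100.2 to 13.3 and 8.95 (-3.36 ± 0.22, adjusted p = 6.66e-05). Hypoxia and glycolysis genes were called higher in 3 and lower in 5 of 18, or 8 and 2 with library totals. In the EGF family 4 of 10 genes were higher and 3 lower, with *Tgfa* at 8.48 and 9.09 against 2.86 and 2.72 and *Erbb4* at 4.43 and 2.85 against 10.8 and 10.5. Squamous genes were higher in 4 and lower in 3 of 11. MHC class II genes were lower in 3 of 6, or in 1 of 6 with library totals. *Cd74* was at 9.64 and 5.97 against 30.7 and 10.2, a call that was lost in 5 of the 20 other settings, DESeq2 (adjusted p = 0.1003), library totals (0.0572) and the fits without KO replicate 2 (0.0633) or WT replicate 1 (0.1005) among them. Of 3 luminal keratin genes outside the rule 1, *Krt7*, was higher, at 563 and 417 against 78.3 and 90.2, and that call was lost after free RNA was subtracted. Of 9 genes linked to the Sox11-positive state 3 were higher and 3 lower.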
